A study of Mus musculus with 9 samples.

Results

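Livers of 6 mice on a high-fat diet were compared: 3 labelled whole-body knockout of protease-activated receptor 2 (PAR2 KO, here KO) and 3 labelled PAR2fl/fl (floxed controls, here WT), out of 9 mice in the series. The 6 libraries were chosen by their genotype labels alone, and every gene with enough reads was described. Polyadenylated RNA of whole liver was sequenced with a kit that keeps the strand, and reads per gene were counted. All mice, controls included, were C57BL/6 and ate the high-fat diet for 16 weeks from an age of 6 to 8 weeks. WT mice carry loxP-flanked alleles of F2rl1, the gene of PAR2, and the labels used here name no Cre in them. The third group, 3 mice labelled PAR2dHep (here dHep), lacks PAR2 in hepatocytes and is used below only to show where KO livers differ from it. The labels give no Cre driver, no colony and no sex, so a difference between the knockout line and the floxed line other than PAR2 cannot be told apart from the genotype.

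PAR2 is a G protein-coupled receptor that serine proteases switch on by cutting its outer end, which frees a tethered ligand. Proteases of coagulation such as factor Xa and the complex of tissue factor with factor VIIa can cut it, and the signal runs through G proteins and is shut off through arrestins. In liver it is expressed at low levels by several cell types, and it has been studied for its part in lipid metabolism, inflammation and fibrosis. The series title links PAR2 to HNF4A, a transcription factor that keeps hepatocytes differentiated, and to fatty liver disease with obesity and dyslipidemia.

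The WT libraries held 24493607, 25213844 and 25570388 reads assigned to genes, and the KO libraries 22275299, 22617238 and 18683660. Defining transcripts of hepatocytes were high in all 6: Alb, serum albumin, stood at 67696 to 81126 CPM (reads per 1e+06 reads, scaled with TMM factors), Ttr at 6691 to 10617 CPM, Apob at 5629.6 to 8191 CPM and Cps1 of the urea cycle at 1944 to 2679.6 CPM. Enzymes of the exocrine pancreas were present in WT replicate 1, where Pnlip reached 87.0 CPM and Prss2 55.1 CPM, against at most 0.82 and 0.519 CPM in the other WT and KO libraries. KO replicate 1 stood apart in epithelial transcripts, with Vil1 at 39.3 CPM, Krt20 at 24.4 CPM and Reg1 at 77.9 CPM, against at most 0.588, 1.18 and 19.5 CPM in the other 5. Counts were also taken without WT replicate 1 and KO replicate 1. Some of those that moved are given below, but not all.

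F2rl1 was higher, not lower, in the libraries labelled KO. The gene lies on chromosome 13, 95511730 to 95525240 (mm10, minus strand). It had 17, 27 and 28 reads in WT and 71, 103 and 76 in KO, or 0.639, 1.00 and 0.998 CPM against 3.33, 4.66 and 4.39 CPM, so the groups did not overlap. The log2 fold change of KO against WT was 2.22 ± 0.51 (SE, n = 3 and 3; edgeR adjusted p = 0.00735), and it passed under all 20 alternatives, edgeR refits, DESeq2 and limma voom among them (adjusted p 1.85e-06 to 0.0418). Counts were made over the whole gene, so reads over a deleted part and over the rest cannot be told apart. The groups are therefore named by their labels throughout, as the libraries labelled KO. The dHep libraries had 2, 8 and 0 reads. Around the locus, 2 of 10 tested genes within 1 Mb of F2rl1 passed the test (20%), 13 of 24 within 2 Mb (54.2%) and 26 of 61 within 5 Mb (42.6%), against 43% over all genes.

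Of the 19 genes listed for protease-activated receptors, their proteases and their signal, 15 were tested; 5 rose, 5 fell and 5 did not pass. Their median log2 fold change was 0.08, against -0.01 over all genes tested, and -0.11 when no scaling factor was used. F7 and F10, the liver-made zymogens of coagulation factors VII and X whose active forms can cut PAR2, both rose: F7 stood at 49.0, 47.3 and 40.1 CPM in WT and 85.2, 80.0 and 88.0 CPM in KO (0.89 ± 0.19), and F10 at 264, 269 and 258 and 451, 466 and 497 CPM (0.84 ± 0.16). Prss8, a membrane-anchored protease known to act in the same cascade as the protease of St14, fell from 3.98, 4.59 and 5.49 to 1.32, 1.85 and 1.44 CPM (-1.60 ± 0.37), while St14 did not pass (1.43 ± 0.74, and 0.30 without KO replicate 1). Tfpi, the inhibitor of the tissue factor pathway, fell (-1.14 ± 0.28), with an adjusted p of 0.0693 without WT replicate 1 and KO replicate 1 together, and F3, tissue factor itself, did not pass (0.38 ± 0.15) except under 1 of 20 alternatives. Below the receptor, the G protein alpha subunits Gnaq (-0.65 ± 0.14) and Gna13 (-0.65 ± 0.13) and the arrestin Arrb1 (-1.05 ± 0.20) fell. Arrb1 stood at 24.2, 24.6 and 23.9 CPM in WT and 12.3, 13.1 and 9.64 CPM in KO, with no overlap. Gna11 (0.08 ± 0.10), Gna12 (-0.01 ± 0.18) and Arrb2 (-0.25 ± 0.17) did not pass. F2r, the thrombin receptor next to F2rl1, rose slightly (0.34 ± 0.098, adjusted p = 0.0197). It did not pass without WT replicate 2 (0.0949), WT replicate 3 (0.0515), KO replicate 2 (0.0629) or KO replicate 3 (0.0797), and with no scaling factor (0.338). F2, prothrombin, stood at 1258, 1321 and 1263 CPM in WT and 1849.8, 1875 and 1876 CPM in KO (0.54 ± 0.19, adjusted p = 0.0466), and its call ended when any 1 of the 6 WT and KO libraries was left out (0.0797 to 0.122). The count of rises was 3 without WT replicate 2, WT replicate 3, KO replicate 2 or KO replicate 3, and 3 with no scaling factor.

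Over all genes, 5653 of 13141 tested passed at an edgeR adjusted p under 0.05 in the libraries labelled KO against WT (43%), of which 2751 rose (20.9%) and 2902 fell (22.1%). The groups did not overlap for 8705 genes (66.2%), among them 5624 of those called. Large changes were more often falls: 612 genes (4.66%) passed a test against a change of 2-fold, 145 up and 467 down. The median size of a called change was 0.83 on the log2 scale, and 28 genes rose and 20 fell by more than 5. The number of calls was 3739 when WT replicate 1 and KO replicate 1 were both left out (1775 rises), and the rises came to 1794 without WT replicate 3. With only the KO and WT libraries in the fit, 7520 genes were called. The 2-fold count was 292 without WT replicate 2, 322 without WT replicate 3, 402 without KO replicate 1, 363 without KO replicate 2, 386 without KO replicate 3 and 331 without WT replicate 1 and KO replicate 1. With library totals in place of TMM factors, 1526 rose and 3763 fell (28.9% rises, against 48.7%), and the median gene shifted by -0.185.

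**Figure D1:**
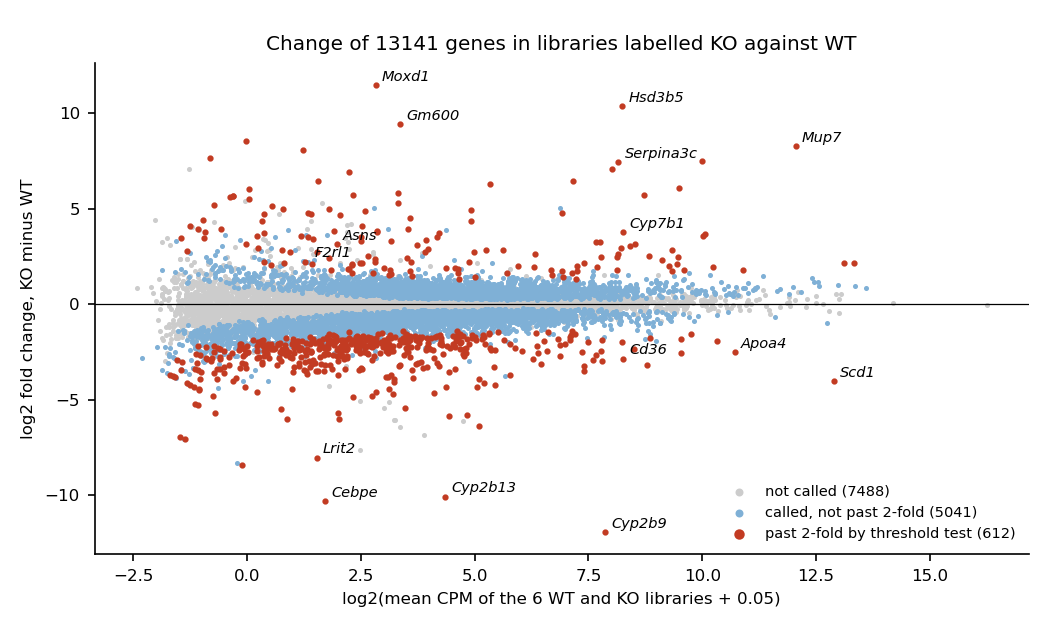
Each point is 1 of the 13141 genes tested, with its mean level over the 6 WT and KO libraries on the horizontal axis (log2 of CPM + 0.05) and its log2 fold change, KO minus WT, on the vertical axis. The 612 genes past 2-fold by test (467 of them falls) lie mostly below 0, and Hsd3b5 and Cyp2b9 stand far above and below genes of similar level.

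The 8 largest rises and 8 largest falls were taken among called genes of at least 1 CPM whose groups did not overlap. They were led by sex-biased liver genes and by genes close to silent in 1 group. Hsd3b5 (chromosome 3, 98618636 to 98645534), a steroid dehydrogenase of male mouse liver, stood at 1.01, 0.259 and 0.107 CPM in WT and 548, 586 and 678 CPM in KO (10.36 ± 0.50; 11.7 without WT replicate 1). Major urinary proteins, pheromone carriers that male liver secretes in bulk, rose with it: Mup7 went from 73.5, 5.37 and 3.28 to 7265, 9518 and 8644 CPM (8.27 ± 1.23; 10.9 without WT replicate 1). Mup14 (7.47 ± 1.03) and Mup1 (7.04 ± 0.87) changed alike, and without WT replicate 1 their values were 8.90 and 8.51. In all 3 Mup genes WT replicate 1 was the highest WT library and stayed below every KO library. Cyp2b9 (chromosome 7, 26173409 to 26210660), a female-biased cytochrome P450, had 9368, 15981 and 13023 reads in WT and 2, 3 and 2 in KO, or 352, 592 and 464 against 0.0939, 0.136 and 0.115 CPM (-11.93 ± 0.47). Its neighbour Cyp2b13 (26061495 to 26096196) had 3333 reads over the WT libraries and 2 over KO, a ratio of 1240 (95% exact counting interval 343 to 10200). Cyp2a4, a testosterone hydroxylase of female liver, fell from 15.1, 100.4 and 88.1 to 0.329, 0.814 and 1.39 CPM (-6.36 ± 1.04), and the organic anion carrier gene Slc22a27 from 25.9, 48.5 and 52.6 to 0.798, 0.814 and 0.577 CPM (-5.83 ± 0.33). Urinary protein and Cyp2 genes have near-identical relatives, so how their reads divide among members is uncertain.

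Several of the 16 had reads in 1 group and few or none in the other. Moxd1 (chromosome 10, 24223517 to 24302783), also on the male-biased list, encodes a copper monooxygenase-like protein. It had 0 reads in every WT library and 247, 572 and 86 in KO. That is at least 405-fold higher, with a floor of 3 reads set for the WT group as a whole. Gm600 (chromosome 14, 65605267 to 65648443) had 2 reads over WT, both in replicate 2, and 1220 over KO, a ratio of 820 (interval 226 to 6780). Ear11 (chromosome 14, 51255262 to 51256112), an eosinophil-associated ribonuclease, had 1 read over WT and 273 over KO (ratio 367, interval 65.3 to 14500). Serpina3c (chromosome 12, 104146907 to 104153872), a serine protease inhibitor of a family with close copies, stood at 2.48, 3.78 and 3.64 CPM in WT and 501, 536 and 662 CPM in KO (7.42 ± 0.25). In the other direction, Cebpe (chromosome 14, 54710363 to 54712174), a transcription factor of granulocytes, had 209, 135 and 185 reads in WT and 0 in every KO library, at least 131-fold lower. Lrit2 (chromosome 14, 37068049 to 37073735), which encodes a leucine-rich repeat protein, had 461 reads over WT and 1 over KO (ratio 343, interval 61.3 to 13600). Erbb4 (chromosome 1, 68039966 to 69108059), a neuregulin receptor, had 287 and 3 (ratio 71.2, interval 24.1 to 347). The defensin gene Defb1 (chromosome 8, 21776555 to 21795185) had 160, 179 and 306 reads in WT and 2, 2 and 3 in KO (-6.02 ± 0.42). Chromosome 14 held 4 of the 16, and chromosomes 4 and 7 held 3 each, counts made after their values were seen. Of the 13141 genes tested, 453 lie on chromosome 14. Intervals and floors cover counting error only.

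**Figure D2:**
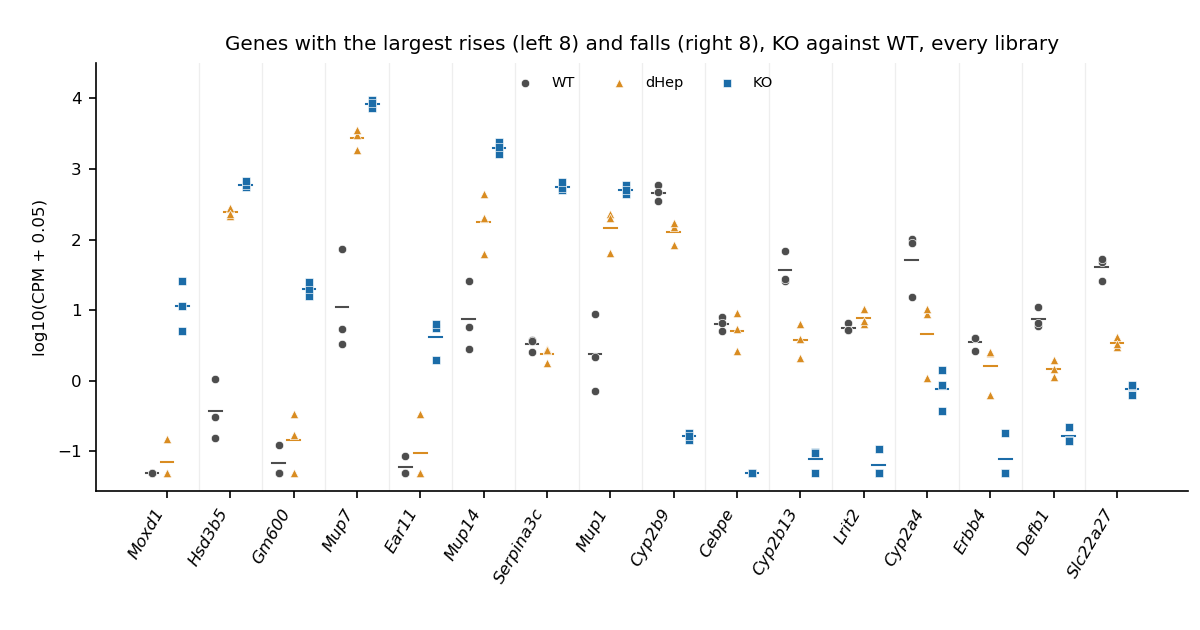
Points are single libraries (log10 of CPM + 0.05) of WT, dHep and KO, with short lines for the mean of each group's 3 log values. By the rule that picked these genes, all KO squares lie above the WT circles in the left 8 and below them in the right 8. Serpina3c, Cebpe and Lrit2 have dHep near WT.

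Of 26 male-biased liver genes tested, 24 rose and 0 fell, with a median log2 fold change of 3.41. Of 19 female-biased genes tested, out of 28 listed, 0 rose and 15 fell, with a median of -2.65. These are lists drawn up with earlier results of these livers known, so their direction is no independent evidence. Cyp7b1, a male-biased oxysterol hydroxylase of the alternative bile acid route, went from 63.0, 32.4 and 30.9 to 499.9, 658 and 566 CPM (3.77 ± 0.34). Without WT replicate 1 and KO replicate 1, 23 rose and 13 fell. Of 4 tested genes of the Y chromosome, which were detected in all 6 libraries, 0 rose and 2 fell: Ddx3y went from 97.0, 89.4 and 78.7 to 68.6, 60.8 and 62.3 CPM (-0.47 ± 0.11), and Uty from 22.7, 21.2 and 20.1 to 13.1, 13.8 and 17.5 CPM (-0.53 ± 0.18), a call kept under 12 of 20 alternatives. In rodents, the sex of the liver transcriptome is set by the pattern of growth hormone release, read out by the receptor, JAK2 and STAT5B. Of 15 genes tested of the growth hormone and IGF1 axis, 5 rose and 2 fell (3 rises without WT replicate 2, WT replicate 3, KO replicate 2 or KO replicate 3), with a median of 0.73. That is 46.7% called, against 43% over all genes. Igf1 stood at 449.8, 414 and 400.3 CPM in WT and 626, 656 and 813 CPM in KO (0.73 ± 0.16, adjusted p = 0.00672). Igfals, the acid-labile subunit that holds IGF1 in serum, rose from 41.3, 28.8 and 27.2 to 94.6, 139.6 and 139.5 CPM (1.94 ± 0.25), and the binding protein gene Igfbp2 from 31.6, 16.6 and 18.4 to 127, 151 and 138 CPM (2.64 ± 0.30). Igfbp3, the main serum carrier of IGF1, fell from 35.6, 34.6 and 33.0 to 11.2, 15.7 and 11.02 CPM (-1.44 ± 0.21). Jak2 fell as well (-0.71 ± 0.21), but its call ended without WT replicate 1 (0.0524), WT replicate 3 (0.0713), KO replicate 2 (0.0811) or KO replicate 3 (0.0782).

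The STAT motif TTCNNNGAA (N is any base; a palindrome, so both strands read alike) was searched in RefSeq promoters of GRCm38.p6, 250 bases before to 50 after each start. It was in 7.12% of 12100 promoters of 9453 tested genes, in 7.12% of those whose gene rose and 7.04% of those whose gene fell. In the growth hormone axis it was in 6 of 21 promoters (28.6%); the share was the same for acute-phase proteins (8 of 28 promoters), 20.8% for bile acid genes and 6.25% for male-biased genes. The HNF4A motif CAAAGTCCA, on either strand, was in 0.521% of all promoters, 0.483% for risen genes and 0.542% for fallen ones. The promoters of Igfals and Moxd1 are shown because their genes rose and they hold the motif, with the match in capitals and plus-strand coordinates. Moxd1 is on the male-biased list, where 1 of 16 promoters held the STAT motif.
Igfals, chr17:24877981-24878280, motif 58 bases before the start: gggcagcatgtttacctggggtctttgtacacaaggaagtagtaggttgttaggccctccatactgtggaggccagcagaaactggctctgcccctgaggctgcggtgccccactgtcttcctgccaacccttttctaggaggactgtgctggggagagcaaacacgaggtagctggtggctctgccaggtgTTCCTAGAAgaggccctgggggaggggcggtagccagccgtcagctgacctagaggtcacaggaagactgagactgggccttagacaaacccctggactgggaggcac
Moxd1, chr10:24223267-24223566, motif 150 bases before the start: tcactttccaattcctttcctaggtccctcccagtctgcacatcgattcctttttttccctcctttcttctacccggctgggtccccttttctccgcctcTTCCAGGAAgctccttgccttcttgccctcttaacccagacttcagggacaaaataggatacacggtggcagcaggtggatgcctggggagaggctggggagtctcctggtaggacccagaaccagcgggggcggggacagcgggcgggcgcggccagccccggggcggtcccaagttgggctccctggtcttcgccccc
For Igfals, the 58 bases are counted from a RefSeq start that lies before the counted gene, which begins at 24878770. A match of letters is a description and shows no binding.

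De novo lipogenesis, which builds fatty acids from acetyl-CoA under insulin and SREBP1, was broadly lower. Of 28 genes tested, 19 fell and 5 rose, with a median of -1.20. Scd1, which puts the first double bond into stearate, stood at 8646, 16263 and 18168 CPM in WT and 1029.9, 527 and 1068 CPM in KO (-4.04 ± 0.45, adjusted p = 0.000339). Fasn, fatty acid synthase, stood at 448, 1214 and 744 CPM in WT and 184, 253 and 194 CPM in KO (-1.93 ± 0.36), and every KO library lay below the lowest WT library. Acaca, which makes malonyl-CoA, fell from 199, 317 and 314 to 52.6, 45.1 and 50.1 CPM (-2.49 ± 0.26). The elongase Elovl5 fell from 907, 1442 and 1478 to 221, 216 and 210.1 CPM (-2.56 ± 0.27), and Me1, malic enzyme that supplies NADPH, from 304, 441 and 439 to 35.6, 51.9 and 63.5 CPM (-2.97 ± 0.34). The 5 that rose were Srebf1, which encodes SREBP1 itself (0.61 ± 0.19), Nr1h3, the oxysterol receptor LXR alpha (0.61 ± 0.12), Mlxipl, the carbohydrate sensor ChREBP (0.84 ± 0.20; adjusted p = 0.0518 with no scaling factor), Mid1ip1, a partner of acetyl-CoA carboxylase (0.67 ± 0.21), and Dgat1 of triglyceride synthesis (0.66 ± 0.17). The rises numbered 3 without WT replicate 1, WT replicate 3 or KO replicate 1, 2 without WT replicate 1 and KO replicate 1 together, and 2 with no scaling factor, while 15 to 19 genes fell when any 1 library was left out.

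Cholesterol synthesis and uptake, driven by SREBP2, fell in 16 of 25 genes and rose in 4, with a median of -0.87. Hmgcs1, which makes HMG-CoA, stood at 337, 389 and 379 CPM in WT and 75.6, 73.0 and 52.6 CPM in KO (-2.46 ± 0.27). Acat2, at the start of the pathway, fell from 52.8, 69.9 and 61.5 to 33.0, 34.2 and 28.1 CPM (-0.95 ± 0.13). Against the direction of the list, Scap, the escort that carries SREBP out of the endoplasmic reticulum, rose from 58.5, 56.4 and 55.9 to 109.6, 97.5 and 95.3 CPM (0.82 ± 0.083). Mvk, mevalonate kinase, rose as well (0.79 ± 0.17; adjusted p = 0.0511 with no scaling factor), as did Tm7sf2 (0.40 ± 0.14) and Ebp (0.63 ± 0.17) of the later steps. The rises numbered 2 without WT replicate 3, without KO replicate 2, without WT replicate 1 and KO replicate 1 together, and with no scaling factor.

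Uptake, storage and burning of fat were lower in part. Of 28 genes of lipid uptake, droplets and PPARG targets, 11 fell and 2 rose (median -0.48), so 46.4% were called, against 43% over all genes. Cd36, the fatty acid translocase, stood at 485, 577 and 555 CPM in WT and 65.8, 67.0 and 91.4 CPM in KO (-2.85 ± 0.20), with no overlap, and Anxa2, an annexin, fell from 133, 170.4 and 185 to 27.9, 29.5 and 31.2 CPM (-2.46 ± 0.13). The 2 that rose were Cideb (0.64 ± 0.17), which acts in lipoprotein lipidation, and the droplet coat gene Plin5 (0.55 ± 0.17). Both calls ended without WT replicate 1 (adjusted p 0.0544 and 0.0751), WT replicate 3 (0.0502 and 0.0816) or KO replicate 3 (0.0512 and 0.0625), and Plin5 also without WT replicate 2 (0.0675) or KO replicate 2 (0.0976). Of 36 genes of fatty acid oxidation and PPARA targets, 19 fell and 3 rose (median -0.43). Cpt1a, which carries fatty acids to mitochondria, went from 707, 841 and 840.2 to 493, 402 and 467 CPM (-0.81 ± 0.15). The microsomal omega-hydroxylase gene Cyp4a14 fell from 659, 873 and 841 to 82.9, 73.5 and 109 CPM (-3.16 ± 0.28), and the pantetheinase gene Vnn1 from 207, 192 and 221 to 43.8, 48.2 and 54.5 CPM (-2.08 ± 0.15). Ppara itself, the receptor that drives these genes, fell from 636, 643 and 631 to 452, 259.7 and 269.5 CPM (-0.96 ± 0.20). The 3 that rose were Acads (0.53 ± 0.15), Acaa2 (0.53 ± 0.17) and Acaa1a (0.55 ± 0.18), enzymes of the oxidation cycle. None of them passed without WT replicate 1, WT replicate 2, WT replicate 3 or KO replicate 2, and 1 did without KO replicate 3.

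**Figure D3:**
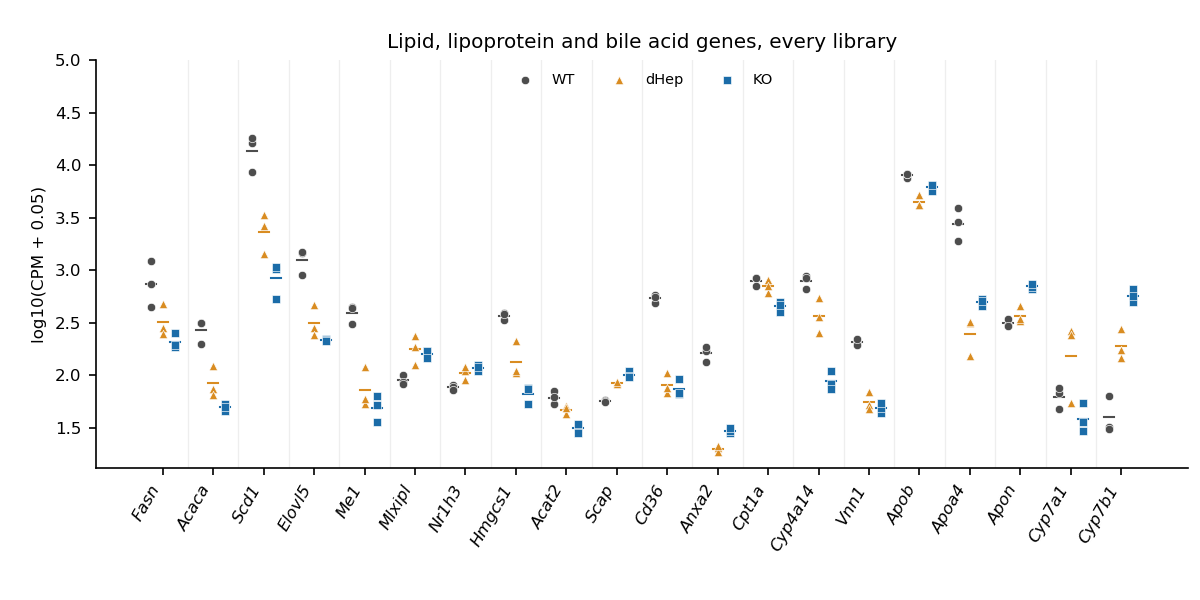
Points are single libraries (log10 of CPM + 0.05), with short lines for the mean of each group's 3 log values, for lipid, lipoprotein and bile acid genes. KO squares lie below WT circles from Fasn to Me1 and above them for Mlxipl, Nr1h3, Scap, Apon and Cyp7b1, while Cyp7a1 overlaps. Apart from the readouts Fasn, Scd1 and Cyp7a1, the genes named here were picked among those whose groups did not overlap.

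Apolipoproteins and lipoprotein handling, in contrast, rose in 17 of 30 genes and fell in 6 (median 0.61). Apon, apolipoprotein N, stood at 300.4, 343 and 297 CPM in WT and 666, 697 and 735 CPM in KO (1.16 ± 0.14), and Lrp1, a remnant receptor, at 379, 385 and 326 and 681, 660.0 and 629 CPM (0.85 ± 0.11). Apob, the backbone of very-low-density lipoprotein, did not pass (-0.36 ± 0.18, adjusted p = 0.124; it passed under 5 of 20 alternatives), and its 3 KO values, 6462, 5629.6 and 6506 CPM, lay below the WT values of 7606, 8191 and 8131 CPM. Apoa4, an apolipoprotein that hepatocytes make in steatosis, fell from 1894, 2847 and 3870 to 530.2, 458 and 507 CPM (-2.53 ± 0.33), and the sterol exporter Abcg1 from 12.2, 12.7 and 12.1 to 3.57, 5.56 and 4.44 CPM (-1.45 ± 0.19). The falls numbered 3 without WT replicate 3 or KO replicate 2. Among 27 genes of bile acid synthesis and transport, 9 rose and 4 fell (48.1% called, against 43% over all genes, median 0.24). Cyp7a1, the rate-limiting enzyme of the classic route, stood at 67.5, 47.9 and 75.6 CPM in WT and 35.9, 29.5 and 54.0 CPM in KO, overlapping, and did not pass (-0.68 ± 0.49, adjusted p = 0.279; it passed under 2 of 20 alternatives). Fgfr4, the receptor through which intestinal FGF15 restrains bile acid synthesis, rose from 21.5, 19.4 and 19.5 to 45.3, 46.4 and 43.6 CPM (1.16 ± 0.11). The export pumps Abcc4 (-2.74 ± 0.42) and Abcc2 (-0.75 ± 0.18) fell. The falls numbered 2 without WT replicate 3 or KO replicate 2, 7 without dHep replicate 1 or dHep replicate 3 or with no scaling factor, and 8 with only the KO and WT libraries in the fit.

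Hepatocyte transcription factors rose in 11 of 26 genes and fell in 1 (median 0.44), so 46.2% were called, against 43% over all genes. Hnf4a stood at 488, 476 and 497 CPM in WT and 633, 545 and 648 CPM in KO; the groups did not overlap, and the difference did not pass (0.32 ± 0.13, adjusted p = 0.0692), although it passed under 6 of 20 alternatives (down to 0.00398). Foxa3, a forkhead factor of hepatocytes, rose from 17.4, 15.6 and 18.1 to 31.1, 56.3 and 61.4 CPM (1.54 ± 0.28). The 1 factor that fell was Ppara, and 3 fell without KO replicate 1 or with no scaling factor. The rises numbered 6 without WT replicate 2, 5 without WT replicate 3, 5 without KO replicate 2, 7 without KO replicate 3 and 6 with no scaling factor. Secreted hepatocyte proteins rose in 10 of 24 genes and fell in 3 (54.2% called, against 43% over all genes, median 0.50). Serpina1a, an alpha-1-antitrypsin gene, rose from 989.8, 849 and 745 to 2773, 3118 and 3000.3 CPM (1.78 ± 0.21), and Fetub, a secreted protease inhibitor, from 189, 169 and 166 to 471, 475 and 527 CPM (1.49 ± 0.22). Alb did not pass (-0.05 ± 0.33). The falls were Serpina1d (-0.55 ± 0.18), Serpina6 (-0.69 ± 0.25), which carries glucocorticoids, and Ttpa (-0.40 ± 0.12). Ttpa is on the list, but its product carries vitamin E inside hepatocytes. Close copies in the Serpina1 and Serpina3 families make the split of reads among them uncertain. The 3 falls dropped to 0 without WT replicate 1, WT replicate 2 or KO replicate 2, and to 1 without WT replicate 3, KO replicate 1 or KO replicate 3. They also came to 0 without WT replicate 1 and KO replicate 1 together.

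Genes of the pericentral zone, next to the central vein, rose in 8 of 24 and fell in 1 (median 0.42). That is 37.5% called, against 43% over all genes. The fall was Aldh1b1 (-1.33 ± 0.18). Cyp1a2, a drug-metabolising cytochrome P450, went from 169, 118 and 118 to 719.8, 842 and 772 CPM (2.52 ± 0.30), and Notum, a Wnt-inhibiting enzyme of pericentral hepatocytes, from 14.2, 13.2 and 13.7 to 28.8, 26.4 and 25.9 CPM (0.98 ± 0.13). Periportal genes rose in 2 of 18, Sdsl (1.10 ± 0.26) and Agxt, and fell in 3 (27.8% called, against 43% over all genes, median 0.25). Hsd17b13 (-0.88 ± 0.18) and Ctsc (-1.05 ± 0.21) were among the falls. Of 36 genes for amino acids and the urea cycle, 16 rose and 1 fell (47.2% called, against 43% over all genes, median 0.50). Without WT replicate 1 and KO replicate 1, 10 rose. Gnmt, which spends S-adenosylmethionine on glycine, rose from 297, 333 and 262 to 757, 761 and 637 CPM (1.27 ± 0.14), and Agxt, which removes glyoxylate, from 112, 133 and 103 to 274, 269 and 261 CPM (1.21 ± 0.16). The gene that fell was Mat1a, which makes S-adenosylmethionine (-0.68 ± 0.18; adjusted p = 0.0516 without WT replicate 2 and 0.0571 without KO replicate 2). Glucose and glycogen metabolism fell in 13 of 31 genes and rose in 0 (median -0.49), so 41.9% were called, against 43% over all genes. Pgd of the pentose phosphate pathway fell from 72.5, 92.4 and 84.7 to 36.8, 42.7 and 39.9 CPM (-1.06 ± 0.12), and Insr, the insulin receptor, from 175, 181 and 181 to 97.6, 76.9 and 83.8 CPM (-1.05 ± 0.13). With only the KO and WT libraries in the fit, 3 of these genes rose. Conjugation enzymes split, with 9 of 29 up and 10 down (median -0.23): Ugt2b1, a glucuronosyltransferase, rose (1.75 ± 0.26), and the glutathione transferases Gstm3 (-2.73 ± 0.25) and Gsta1 (-2.47 ± 0.42) fell, the last by 3.17 without WT replicate 1 and KO replicate 1.

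Collagens and other matrix genes fell almost throughout, in 33 of 39 tested, with 1 rise and a median of -1.67. Col1a1, a chain of type I collagen, stood at 19.1, 20.2 and 16.1 CPM in WT and 3.85, 6.19 and 3.75 CPM in KO (-2.001 ± 0.27, adjusted p = 0.000645), with no overlap. Col3a1 fell from 134, 147 and 127 to 23.9, 38.1 and 27.1 CPM (-2.20 ± 0.18), and Col6a3 from 17.5, 17.2 and 17.0 to 4.23, 5.11 and 3.92 CPM (-1.96 ± 0.15). The 1 rise was Fn1, fibronectin, which hepatocytes also secrete (0.42 ± 0.14); it did not pass when any 1 of the WT and KO libraries was left out (adjusted p 0.0637 to 0.124). Markers of stellate cells and fibroblasts fell in 12 of 24 and rose in 0 (50% called, against 43% over all genes, median -0.62). These cells make most of this matrix. Pdgfrb, their growth factor receptor, fell from 14.8, 15.2 and 18.0 to 8.45, 8.91 and 8.14 CPM (-0.91 ± 0.13), and Bmp5 from 14.5, 15.5 and 13.5 to 6.67, 6.33 and 5.02 CPM (-1.27 ± 0.16). In RNA of whole liver, fewer cells of a type and less RNA per cell cannot be told apart. Cell-cycle genes fell in 29 of 35 and rose in 0 (median -1.35): Mki67, an antigen of dividing cells, went from 8.79, 10.4 and 13.6 to 3.05, 2.4 and 2.37 CPM (-2.06 ± 0.20), and the replication helicase gene Mcm3 from 14.2, 16.8 and 16.5 to 6.25, 7.23 and 5.71 CPM (-1.31 ± 0.15). Without WT replicate 1 and KO replicate 1, the falls numbered 31 for matrix, 10 for stellate cell and 24 for cell-cycle genes.

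**Figure D4:**
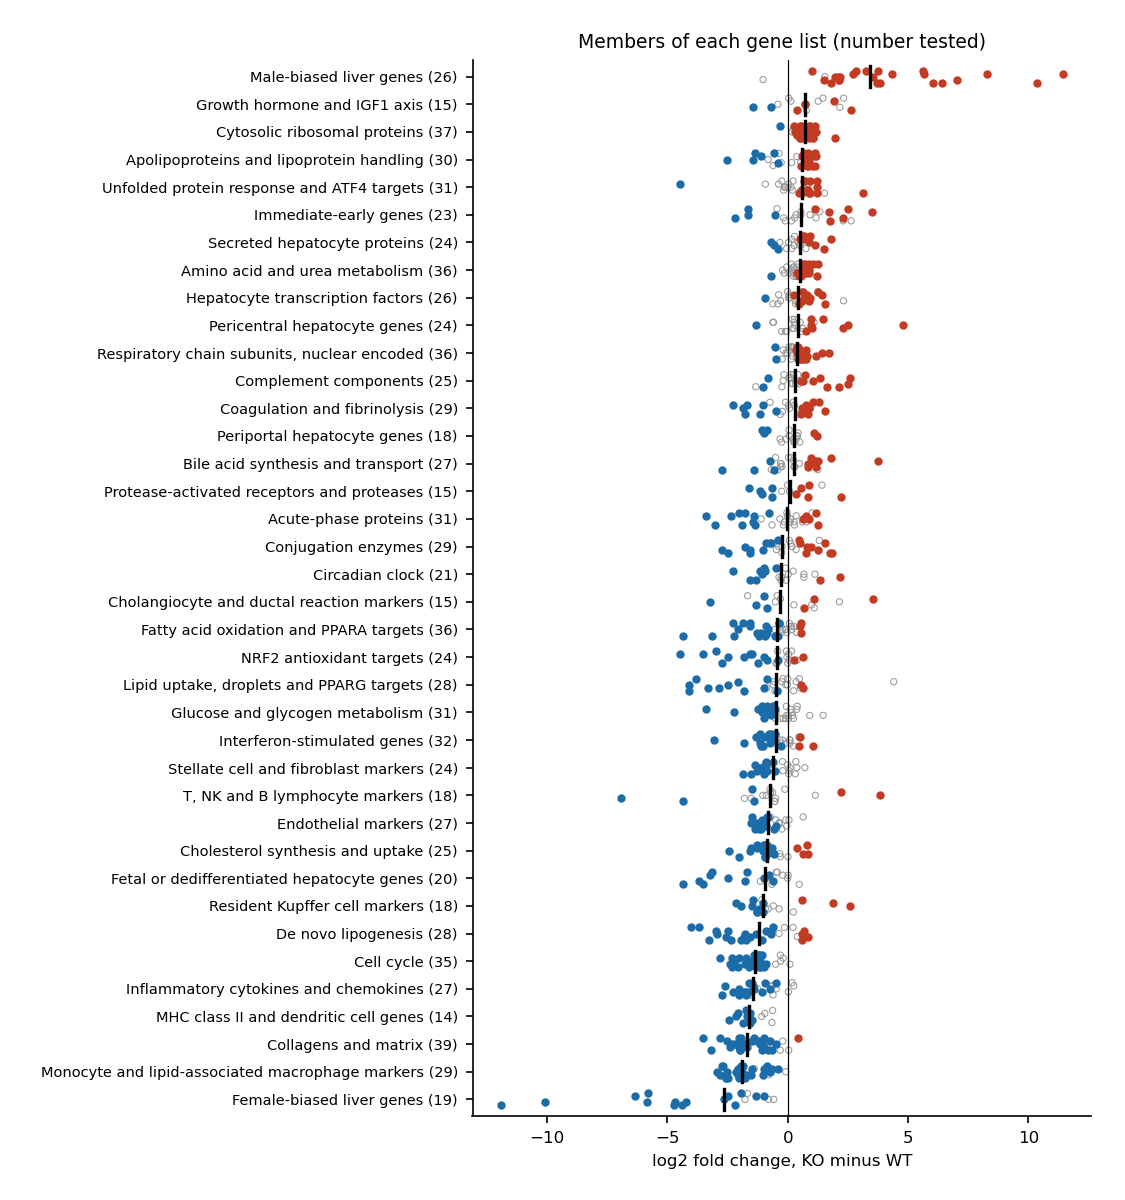
Each row is a gene list of liver or immune function with 10 or more members tested (number in brackets), ordered by its median, and each point is a member's log2 fold change, KO minus WT; red rose, blue fell, open circles did not pass, and black bars are medians. Male-biased genes stand at the top (median 3.41) and female-biased genes at the bottom (median -2.65), with matrix, macrophage and cell-cycle medians of -1.67, -1.88 and -1.35.

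Monocyte and lipid-associated macrophage markers, genes of the cells that enter fatty liver and surround dead hepatocytes, fell in 26 of 29 and rose in 0 (median -1.88). Their summed level was 2728, 3269 and 3367 CPM in WT and 1635, 1747 and 1670 CPM in KO. The integrin gene Itgax stood at 6.8, 8.37 and 6.7 CPM in WT and 0.845, 1.22 and 1.33 CPM in KO (-2.69 ± 0.23), and the chemokine receptor gene Cx3cr1 at 5.63, 5.45 and 5.81 and 1.08, 1.09 and 0.693 CPM (-2.55 ± 0.23). Resident Kupffer cell markers fell in 9 of 18 and rose in 3 (median -1.02). Cd5l, secreted by Kupffer cells, fell from 166, 198 and 209.5 to 28.8, 47.7 and 52.6 CPM (-2.15 ± 0.28), and Folr2 from 10.2, 14.4 and 13.2 to 3.1, 4.88 and 5.48 CPM (-1.49 ± 0.26). The 3 that rose were Id3 (1.88 ± 0.24), C6 (2.59 ± 0.30) and Nr1h3 (0.61 ± 0.12), and hepatocytes are known to express the last of these and C6. Genes of antigen presentation by MHC class II and of dendritic cells fell in 10 of 14 and rose in 0 (median -1.61), among them Ciita, the switch of class II expression (-2.44 ± 0.38), and Cd83 of mature dendritic cells (-2.13 ± 0.25). Of 14 neutrophil markers listed, 6 were tested and 5 fell (S100a8, S100a9, Csf3r, Retnlg and Lcn2); Csf3r, the receptor for granulocyte colony-stimulating factor, went from 2.48, 3.15 and 3.07 to 1.22, 1.54 and 1.04 CPM (-1.19 ± 0.23).

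Lymphocyte markers rose in 2 of 18 and fell in 4 (median -0.73), so 33.3% were called, against 43% over all genes. Natural killer cell receptors were near 0 in KO: Ncr1 had 15, 14 and 22 reads in WT and 0 in every KO library (at least 12.6-fold lower), and Klrb1c had 14, 17 and 32 and 2, 0 and 0 (ratio 23.4, interval 6.22 to 198). Cd4 rose from 0.714, 1.11 and 0.713 to 3.1, 4.16 and 4.44 CPM (2.20 ± 0.32), and Igj, the joining chain of secreted antibodies, from 0.864, 1.26 and 0.713 to 21.8, 15.8 and 2.89 CPM (3.84 ± 0.77). The lymphocyte falls numbered 2 without WT replicate 3, KO replicate 2 or KO replicate 3, and 7 without dHep replicate 3. Of 27 genes for inflammatory cytokines and chemokines, 17 fell and 0 rose (median -1.43); the falls came to 9 without WT replicate 3, 10 without KO replicate 1 and 6 without WT replicate 1 and KO replicate 1. The chemokine genes Ccl9 (46.2, 62.8 and 56.2 CPM in WT, 17.2, 17.7 and 18.1 CPM in KO, -1.64 ± 0.18) and Cxcl9 (29.3, 29.6 and 49.9 and 5.64, 6.74 and 10.2 CPM, -2.28 ± 0.32) were among them. Among 32 genes that interferon induces, 15 fell and 3 rose (56.2% called, against 43% over all genes, median -0.51). Gbp2, a guanylate-binding protein of host defence, fell from 20.6, 18.7 and 36.4 to 2.58, 3.3 and 3.23 CPM (-3.05 ± 0.36), and Ifit2, which binds viral RNA, from 12.5, 15.4 and 13.5 to 3.71, 4.02 and 4.16 CPM (-1.80 ± 0.14). The rises were Mx2 (1.04 ± 0.32), Irf9 (0.50 ± 0.11) and Stat2 (0.46 ± 0.17). The falls numbered 9 without WT replicate 3, 8 without KO replicate 2 and 9 without WT replicate 1 and KO replicate 1. The rises numbered 1 without WT replicate 1, WT replicate 3 or KO replicate 3, 1 without WT replicate 1 and KO replicate 1 together, and 0 with no scaling factor.

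Genes of the acute phase, coagulation and complement, some of them made by cells other than hepatocytes, changed in both directions. Of 31 acute-phase genes, 5 rose and 10 fell (48.4% called, against 43% over all genes, median -0.03). Lcn2, the siderophore-binding lipocalin, fell from 42.0, 69.5 and 42.8 to 9.02, 14.5 and 17.9 CPM (-1.90 ± 0.28) and the interleukin-1 antagonist gene Il1rn from 10.8, 18.3 and 14.2 to 2.11, 2.71 and 3.69 CPM (-2.35 ± 0.27). Serpina3m, a protease inhibitor, rose from 404, 476 and 457 to 892, 1137 and 1202 CPM (1.27 ± 0.23), and Itih3, which stabilises hyaluronan, from 706, 722 and 640.4 to 1089, 1015 and 1112 CPM (0.64 ± 0.13). The rises numbered 8 without dHep replicate 1 or dHep replicate 3 or with upper-quartile factors, and 10 with only the KO and WT libraries in the fit. Coagulation and fibrinolysis rose in 12 of 29 genes and fell in 7 (median 0.28). F11, a zymogen of the contact pathway, rose from 65.5, 49.7 and 43.0 to 151, 146 and 165 CPM (1.54 ± 0.15), and Serpinf2, the plasmin inhibitor, from 469, 463 and 418 to 988, 925 and 889.7 CPM (1.05 ± 0.12). Among the falls, Plau, urokinase, went from 5.71, 5.59 and 5.63 to 1.03, 1.31 and 1.1 CPM (-2.29 ± 0.20), and F8, made by sinusoidal endothelium, from 44.9, 40.0 and 38.2 to 11.7, 16.1 and 10.2 CPM (-1.69 ± 0.23). The falls numbered 4 without KO replicate 3 and 4 without WT replicate 1 and KO replicate 1. Complement components rose in 9 of 25 and fell in 2 (44% called, against 43% over all genes, median 0.32). Rises included C6 (124, 58.5 and 58.6 to 420.0, 490.5 and 543 CPM, 2.59 ± 0.30) and C8b (99.4, 56.7 and 44.1 to 315, 364 and 444 CPM, 2.49 ± 0.32), both of the membrane attack complex. The falls were C1qa (-1.03 ± 0.28), which macrophages make, and Cfp, properdin (-0.81 ± 0.26); the latter call ended without WT replicate 2 (0.0853), WT replicate 3 (0.083) or KO replicate 2 (0.0593).

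Of 27 endothelial markers, 15 fell and 0 rose (55.6% called, against 43% over all genes, median -0.83). Without WT replicate 1 and KO replicate 1, 9 fell. Clec4g, a lectin of sinusoidal endothelium, went from 58.8, 55.2 and 54.9 to 24.0, 32.8 and 21.2 CPM (-1.11 ± 0.15), and Tek, the angiopoietin receptor, from 25.1, 21.97 and 17.9 to 9.39, 9.9 and 8.77 CPM (-1.21 ± 0.14). Genes of fetal or dedifferentiated hepatocytes fell in 11 of 20 and rose in 0 (55% called, against 43% over all genes, median -0.92). Anxa5 went down from 265, 294 and 362 to 22.1, 38.8 and 36.4 CPM (-3.24 ± 0.21), and the carbonyl reductase gene Cbr3 from 3.19, 4.59 and 5.42 to 0.235, 0.362 and 0.577 CPM (-3.50 ± 0.42). Cholangiocyte markers were mixed, with 3 of 15 up and 4 down (46.7% called, against 43% over all genes). Sox9, a transcription factor of bile duct cells, rose from 1.88, 2.41 and 1.82 to 4.98, 4.66 and 3.35 CPM (1.09 ± 0.23). Its adjusted p was 0.0601 without WT replicate 1 and KO replicate 1. Cldn7 was called up as well (3.52 ± 1.11; 6.998 CPM in KO replicate 1, 0.814 and 0.346 CPM in KO replicates 2 and 3, and 0.376, 0.148 and 0.178 CPM in WT, so the groups overlapped), and the falls were Spp1 (-0.999 ± 0.25), Sox4 (-1.33 ± 0.33), Aqp1 (-0.87 ± 0.27) and Anxa5. The cholangiocyte rises numbered 1 without WT replicate 1, WT replicate 2, WT replicate 3 or KO replicate 1, and 5 without KO replicate 3. They came to 0 without WT replicate 1 and KO replicate 1 together.

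Genes of the unfolded protein response and ATF4 rose in 14 of 31 and fell in 1 (median 0.59), so 48.4% were called, against 43% over all genes. Atf4, which turns on amino acid supply under stress, rose from 49.7, 45.6 and 51.1 to 82.5, 133 and 122 CPM (1.21 ± 0.18), and its target Asns, asparagine synthetase, from 0.751, 0.741 and 0.891 to 8.5, 8.23 and 4.16 CPM (3.13 ± 0.50). The 1 that fell was Slc7a11, the cystine carrier, with 68 reads over WT and 2 over KO (ratio 25.3, interval 6.74 to 213). The rises numbered 5 without WT replicate 2, 6 without WT replicate 3, 6 without KO replicate 2 and 9 with no scaling factor. NRF2 targets, which answer oxidative stress, fell in 12 of 24 and rose in 2 (median -0.46), with Me1, Cbr3, Gsta1, Abcc4 and Slc7a11 shared with other lists. The 2 rises, Keap1 (0.25 ± 0.09) and Sod1 (0.63 ± 0.17), numbered 0 without WT replicate 1, WT replicate 3, KO replicate 2 or KO replicate 3. Immediate-early genes are switched on within minutes of a stimulus. They rose in 6 of 23 and fell in 4 (43.5% called, against 43% over all genes, median 0.55). Ier2 went from 3.01, 2.67 and 3.03 to 40.0, 29.3 and 30.3 CPM (3.51 ± 0.21) and Jund from 4.77, 6.08 and 5.67 to 18.6, 21.97 and 14.9 CPM (1.75 ± 0.20), while Klf6 (-1.65 ± 0.17) and Maff (-2.18 ± 0.25) fell. The falls numbered 2 without WT replicate 1, WT replicate 3, KO replicate 2 or KO replicate 3, and the median was 0.13 without KO replicate 1. Genes of the circadian clock fell in 8 of 21 and rose in 2 (47.6% called, against 43% over all genes, median -0.28). Arntl, the activator BMAL1, rose from 2.78, 1.96 and 1.35 to 11.4, 9.45 and 6.35 CPM (2.16 ± 0.35), and the repressor genes Per3 (20.4, 27.3 and 20.1 to 8.03, 5.83 and 8.89 CPM, -1.58 ± 0.22) and Nr1d2 (129, 136 and 126 to 79.2, 52.5 and 64.8 CPM, -0.99 ± 0.18) fell. The labels give no hour of killing. The clock falls numbered 5 without WT replicate 1, WT replicate 2, WT replicate 3, KO replicate 2 or KO replicate 3.

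Cytosolic ribosomal protein genes rose in 34 of 37 and fell in 1 (median 0.70; 0.51 and 26 rises with no scaling factor). Rpl37 went from 64.3, 61.5 and 64.6 to 118, 153 and 128 CPM (1.07 ± 0.12). The exception was Rplp0, a stalk protein, which fell from 179, 171 and 169 to 135, 149.8 and 131 CPM (-0.32 ± 0.098). Its call ended without WT replicate 1 (0.0914), WT replicate 2 (0.0713), WT replicate 3 (0.0652), KO replicate 1 (0.0846) or KO replicate 3 (0.1). Nuclear-encoded subunits of the respiratory chain rose in 21 of 36 and fell in 2 (median 0.40). Uqcrq of complex III rose from 56.5, 55.5 and 58.6 to 181, 223 and 155 CPM (1.71 ± 0.21), and Ndufs7 of complex I from 16.2, 15.3 and 14.1 to 34.9, 48.2 and 37.7 CPM (1.41 ± 0.18). The 2 that fell, Ndufs1 (-0.52 ± 0.13; adjusted p = 0.0504 without WT replicate 1 and KO replicate 1) and Sdha (-0.48 ± 0.12; 0.0501 without KO replicate 2 and 0.0501 without KO replicate 3), carry the cofactors of complexes I and II. The rises numbered 12 without WT replicate 1, 12 without WT replicate 2, 10 without WT replicate 3, 11 without KO replicate 2, 12 without KO replicate 3 and 11 with no scaling factor. Without WT replicate 1 and KO replicate 1 together, 11 rose and 0 fell. Ribosomal protein genes have many processed copies in the genome, so their counts are uncertain.

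Transcripts of cells from outside the liver were not shared evenly by the libraries. Of 25 pancreatic acinar markers, 11 were tested and none passed; their summed level was 481, 12.6 and 13.5 CPM in WT and 186, 83.2 and 80.0 CPM in KO. In KO replicates 2 and 3 nearly all of it was Cela1 (81.1 and 74.3 CPM), while Pnlip stood at 0.181 and 0.519 CPM there. Skeletal muscle markers summed to 15.5, 11.9 and 36.5 CPM in WT and 23.1, 73.8 and 100.2 CPM in KO, and 1 of 18 rose, Neb (1.07 ± 0.26; adjusted p = 0.0535 without WT replicate 1 and KO replicate 1), while 5 rose without dHep replicate 2. Among 10 adipocyte markers 0 passed, with Adipoq at 0.451, 0.296 and 0.285 CPM in WT and 0.141, 0.633 and 2.19 CPM in KO. No marker of mesothelium and smooth muscle, of 11, passed. Of 5 intestinal markers tested, Vil1 was called up, at 0.563, 0.296 and 0.356 CPM in WT and 39.3, 0.588 and 0.346 CPM in KO, and the call ended without KO replicate 1 or any 1 of the WT libraries; Apoa4, which liver also makes, fell. The red-cell list had 2 members tested, of which Alas2 of heme synthesis in red-cell precursors rose (0.66 ± 0.13). The part of these transcripts in the other results was not tested, beyond the counts given without WT replicate 1 and KO replicate 1.

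Against dHep livers, the libraries labelled KO differed in fewer genes. KO minus dHep, which also tests whether the change from WT differs between both knockouts, called 1264 of 13141 genes (9.62%), 556 higher in KO and 708 lower; dHep against WT called 3192 (24.3%). Both comparisons with WT share the same WT libraries. Replicates were less alike in dHep, where the median SD of log2 CPM was 0.282, against 0.107 in WT and 0.164 in KO. The count of 1264 was 807, 692 and 722 without WT replicates 1, 2 and 3, 419 without KO replicate 2, 386 without KO replicate 3 and 2809 without dHep replicate 3. It was 545 without WT replicate 1 and KO replicate 1, and 495 without WT replicate 1 and dHep replicate 2. Pancreatic acinar markers summed to 84.8, 1759 and 77.9 CPM in dHep and skeletal muscle markers to 82.1, 992 and 21.97 CPM, so replicate 2 held most of both. Their part in KO minus dHep was not tested, beyond the count without those 2 libraries.

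Among the largest changes, Serpina3c, Gm600, Ear11, Moxd1, Cebpe, Lrit2 and Erbb4 were genes whose mean CPM in dHep was closer to WT than to KO. On the CPM scale, the dHep mean was also closer to WT for Hsd3b5 (243.5 CPM), Mup7 (2810), Mup14 (233) and Mup1 (166.5). In these, dHep still stood far above the WT means of 0.46, 27.4, 11.4 and 3.91 CPM. On the log2 scale, dHep was closer to KO in all of them. KO minus dHep was 1.31, 1.59, 3.11 and 1.63, against 9.05, 6.68, 4.36 and 5.42 for dHep minus WT. Mup7 and Mup1 did not pass KO minus dHep (edgeR adjusted p = 0.281 and 0.15). Moxd1 had 905 reads over KO and 2 over dHep (ratio 586, interval 162 to 4850), but KO minus dHep passed under 18 of 19 alternatives (adjusted p up to 0.111). Erbb4 stood at 2.43, 2.53 and 0.589 CPM in dHep, and its mean of 1.85 CPM was about midway between WT (3.53) and KO (0.0452). Cyp2b13 stood at 2.07, 6.26 and 3.92 CPM and Defb1 at 1.92, 1.08 and 1.42 CPM in dHep, between both other groups. Serpina3c stood at 1.77, 2.81 and 2.65 CPM in dHep, and KO minus dHep was 7.89 ± 0.26. Cebpe stood at 5.4, 2.61 and 9.02 CPM in dHep and Lrit2 at 6.3, 10.4 and 7.01 CPM, against 0 and 1 read over KO. Cyp2b9 was lower in dHep than in WT but far above KO, at 84.3, 149 and 170.3 CPM (-10.13 ± 0.46). Of these, Serpina3c, Gm600, Ear11, Cebpe, Lrit2, Erbb4 and Cyp2b9 were among 20, of 54 named genes called in KO minus dHep, that passed under all 19 alternatives. Female-biased genes were lower in KO than in dHep in 12 of 19 (6 to 15 when 1 library was left out), and male-biased genes higher in 10 of 26 (2 to 10). Cholesterol synthesis was lower in KO in 10 of 25 (2 to 13) and lipogenesis in 9 of 28 (1 to 10), with 0 higher in either list. Cyp4a14 stood at 253, 538 and 358 CPM in dHep (-2.12 ± 0.27), Insr at 145, 195 and 154 CPM (-0.94 ± 0.13), Apon at 326, 343 and 451 CPM (0.91 ± 0.14) and Fgfr4 at 32.2, 26.5 and 26.7 CPM (0.66 ± 0.11); these 4 passed under all 19 alternatives.

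Outside hepatocyte metabolism, endothelial markers were lower in KO than in dHep in 9 of 27 (3 to 12 when 1 library was left out) and clock genes in 8 of 21 (4 to 10), while ATF4 and unfolded protein genes were higher in 10 of 31 (3 to 13). Clec4g stood at 59.0, 63.2 and 61.7 CPM in dHep (-1.24 ± 0.15), Per3 at 29.5, 46.5 and 39.0 CPM (-2.34 ± 0.22), Asns at 0.869, 1.04 and 0.147 CPM (3.29 ± 0.51) and Ccl9 at 67.9, 60.9 and 42.8 CPM (-1.70 ± 0.18); each passed under all 19 alternatives. Matrix genes, of which 31 of 39 fell in dHep against WT and 33 in KO, were higher in KO than in dHep in 3 and lower in 0. Cell-cycle genes were higher in 3 of 35 and lower in 0, and macrophage markers higher in 3 of 29 and lower in 2. Col1a1 (0.45 ± 0.27), Cd36 (-0.14 ± 0.19) and Igf1 (-0.12 ± 0.16) did not pass KO minus dHep, which does not show that they were equal.

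**Figure D5:**
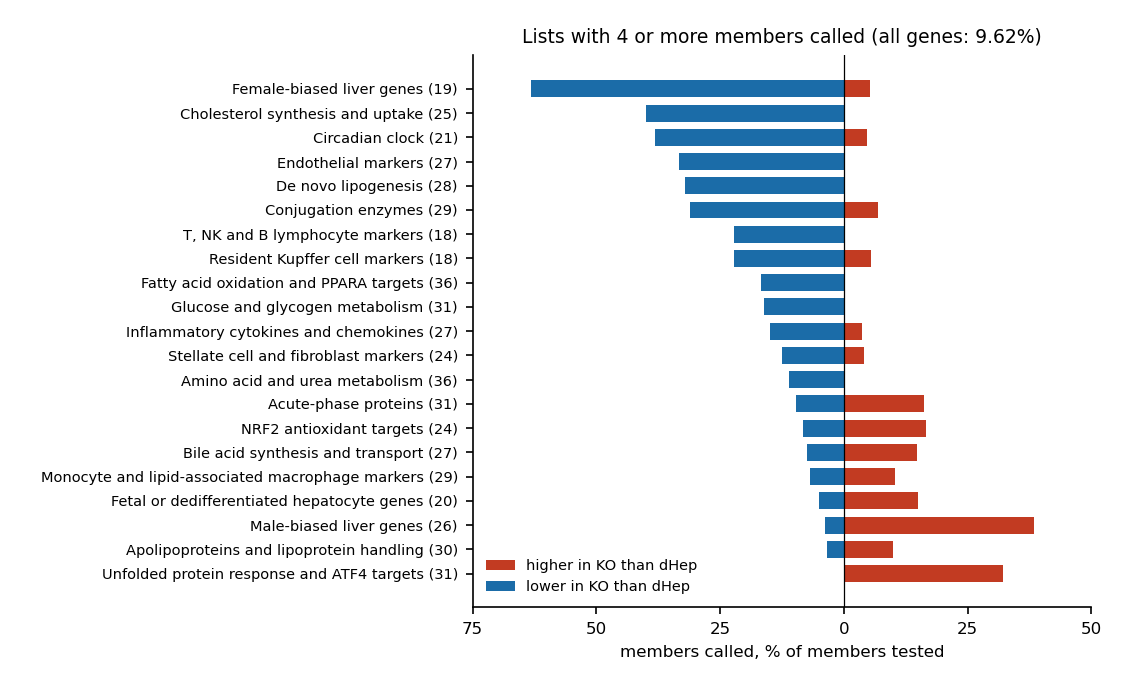
Bars give the percent of each list's tested members (number in brackets) called higher (red, right) or lower (blue, left) in KO than in dHep, for lists of liver or immune function with 10 or more members tested and 4 or more called; 9.62% of all genes were called. Female-biased genes (12 of 19), cholesterol synthesis (10 of 25) and clock genes (8 of 21) lie farthest to the left, and male-biased (10 of 26) and ATF4 genes (10 of 31) farthest to the right.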

How the data were processed

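Per the submitters' processing notes, reads were checked with FastQC and aligned to mm10 with HISAT2 2.1.0, and Subread and DESeq2 were used. The deposited values are raw read counts per gene, made by the authors with featureCounts 1.6.2 with strand setting 2, per the file header. The remaining column, gene length, is the authors' own deposited annotation and entered no test. All 9 libraries were fitted together with edgeR 4.0.16 (R 4.3.3): TMM factors, filterByExpr (minimum count 10, minimum total 15; 13141 of 23337 genes kept), quasi-likelihood tests of KO minus WT and KO minus dHep, and Benjamini-Hochberg adjustment over all genes tested at 0.05. A second test asked for a change above 2-fold (glmTreat). A log2 fold change is given with its SE, n = 3 per group, and an adjusted p is from this edgeR fit unless an alternative or a left-out library is named. Labels call the mice separate samples and do not say whether they were littermates. DESeq2 1.42.0 and limma 3.58.1 (voom) were among 20 alternatives.

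The 45 gene lists and the rule for named genes were chosen with earlier results of these data known. The rule named 13 readouts and the 8 largest rises and falls among called genes of at least 1 CPM whose groups did not overlap. It also named all tested protease-activated receptor genes and, per list and direction, the 2 called genes of smallest p whose groups did not overlap. The members of counts of 5 or fewer, library markers and other genes outside it were named after their values were seen. Of 1089 listed symbols, 1065 were in the table and 983 were tested. Some genes of the lists are not reported here by name. RefSeq promoters (GRCm38.p6) were matched by symbol.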

Additional observations from a re-analysis of the deposited data

Results flagged for a closer look

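In 7 of the 159 named genes every KO library lay on one side of the WT libraries and every dHep library on the other. The genes were picked by this pattern, so their KO minus dHep values (edgeR, adjusted over all genes) describe it and are no independent test. F2rl1 was higher in KO than in WT and lower in dHep, with a KO minus dHep log2 fold change of 4.96. The same pattern held for Sox9 (1.45) and F2r (1.23). The opposite pattern, lower in KO and higher in dHep, held for Per3 (-2.34), Serpina1d (-1.61), Clec4g (-1.24) and Rplp0 (-0.968). All 7 passed KO minus dHep under the 19 alternatives that gave a value. Of these genes, Serpina1d, Rplp0, F2r and Sox9 lost their call in KO against WT under at least 1 alternative.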

How the results depend on the processing

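Of 150 named genes called in KO against WT, 124 stayed called under every alternative that gave a value, 26 lost the call under at least 1, and 0 changed direction. Of 1620 list counts under alternatives, 1408 were within 1.5 times the main count. The 5653 calls came to 3739 without WT replicate 1 and KO replicate 1, 7520 with only the KO and WT libraries in the fit, and 8202 with limma voom. The 2751 rises came to 1775 without WT replicate 1 and KO replicate 1, 1526 with no scaling factor, and 1794 to 3180 when 1 library was left out. The 612 genes past 2-fold came to 331 without WT replicate 1 and KO replicate 1, 911 with only the KO and WT libraries in the fit, and 292 to 748 when 1 library was left out. The 1264 calls of KO minus dHep came to 495 without WT replicate 1 and dHep replicate 2, 545 without WT replicate 1 and KO replicate 1, 2016 with DESeq2, 802 with limma voom, and 386 to 2809 when 1 library was left out. The cause was not tested. Deviations of same-numbered WT and KO samples were weakly correlated (r = 0.0178, 0.0101 and 0.0273), against -0.0695 to 0.0626 for the other pairs. With 3 libraries per group, this cannot settle whether the numbers pair the samples. With the replicate block, 5292 genes were called (2512 rises), 542 were past 2-fold, 954 were called in KO minus dHep, and F2rl1 stood at 2.24. Low read counts limit the precision of genes such as F2rl1, and 3 libraries per group limit all tests.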
